A study of Mus musculus with 145 samples.

Results

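The 10 genes described here encode enzymes and carriers of threonine, serine and glycine metabolism and of the one-carbon unit that these amino acids supply: *Tdh*, *Gldc*, *Phgdh*, *Psat1*, *Shmt1*, *Shmt2*, *Mthfd2*, *Bcat2*, *Sfxn1* and *Cth*. They were taken by name from the 24615 genes of the count table, and all 10 were present in every table used. They had been listed with their levels in the cell classes in view, and the 5C and DMSO counts are among the sources of the list, so differences between classes and with treatment are given as a description with no test. Tests were kept for batch and day.

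Threonine dehydrogenase oxidises threonine in mitochondria to an intermediate that the enzyme Gcat splits into glycine and acetyl-CoA, and the glycine cleavage system then releases a one-carbon unit from glycine onto folate. Serine feeds the same folate pool through the hydroxymethyltransferases, and cells can make serine from a glycolytic intermediate. Mouse ESCs are known for high threonine dehydrogenase and for their need of threonine, and the folate pool supplies nucleotide synthesis and, through methionine, the methyl donor of the cell.

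Single-cell transcriptomes came from SSCs (spermatogonial stem cells) of male pups 5.5 days old, the offspring of C57BL/6 females with an *Oct4*-EGFP or EGFP transgene and DBA/2 males (DBA in the labels), and all SSC-derived groups share this cross. SSCs were grown on feeder cells in StemPro-34 SFM with EGF, bFGF, GDNF and ESGRO, and in the original condition, which had no added treatment, they were left without passaging and collected on days 0 to 27 in 46 libraries of 2 batches, named B1 and B2. The line gPSC-1 (germline-derived pluripotent stem cells) at passages 1 and 15 and mouse ESCs gave 1 library each, and both were maintained in N2B27 with 2iL. Per the study's methods, its ESCs came from *Oct4*-EGFP blastocysts of B6D2F1 background, the background also given for the SSCs. The RNA arm of scTrio-seq2 profiled 8 samples treated with 5C, a mixture of TUDCA, Daphnetin, EGCG, vitamin C and SGC707, on days 12 to 16 and 5 samples with the vehicle DMSO, of which 4 were from days 20 and 24 and 1 held cells of days 0 and 24. Colonies were picked and cells were collected by mouth pipette, gPSC-1 is 1 line, and the feeder cells are a further source of RNA.

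Cells carried the cluster names of the authors' annotation: SSC1 to SSC4 for SSCs, RPG1 to RPG4 for the branch that gains pluripotent features, and fibroblast, early-pluripotent, meiotic and neural clusters for the other branches. UMIs (unique molecular identifiers, 1 per captured molecule) of all cells of a class in a library were added up, leaving out sums of fewer than 5 cells. A library here is a sample as labelled, and some samples, such as day 20 replicate 8, hold cells of 2 library names of the barcode table. This gave 36 sums for SSC1-4 (2248 cells), 7 for RPG1 (321 cells), 3 for RPG2 (44 cells), 8 for RPG3 (261 cells) and 2 for RPG4 (21 cells). Levels are CPM, the UMIs of a gene per 1000000 UMIs of the sum, and they are compared between classes and not between genes. RPG2 sums came from batch B2 alone and RPG4 sums from batch B1 alone, so class and batch cannot be told apart between these 2. SSC1-4 held 29 sums of B1 and 7 of B2, and RPG3 held 5 and 3. The main fit between classes had no batch term.

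Libraries held 15975410 to 34609591 UMIs in the original condition, 10833720 to 14807169 in the lines, 5881566 to 10724925 with 5C and 3889964 to 8062911 with DMSO, and no cell name was shared between libraries. The class labels were checked against fixed markers. The summed level of 6 pluripotency genes was 1805 to 2271 CPM in RPG3, 2095 to 2358 in RPG2, 945 to 1165 in RPG4, 172 to 449 in RPG1 and 63.9 to 397 in SSC1-4. The summed level of 5 spermatogonial genes ran the other way, with 1342 to 2337 CPM in SSC1-4, 1280 to 1573 in RPG1 and 81.6 to 278 over RPG2 to RPG4. RPG1 therefore held mostly the SSC markers, and RPG2 to RPG4 mostly the pluripotent ones. Fibroblast markers, which feeder cells share, summed to at most 21.4 CPM in RPG3 and 118 in SSC1-4.

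All 10 genes are protein-coding. On GRCm38 in the GENCODE vM21 annotation, *Tdh* lies at chr14:63492347-63509092 on the minus strand, *Gldc* at chr19:30098447-30175429 on the minus strand, *Sfxn1* at chr13:54071869-54108342 on the plus strand, *Bcat2* at chr7:45570153-45589711 on the plus strand and *Cth* at chr3:157894248-157925077 on the minus strand. *Phgdh* lies at chr3:98313170-98339990, *Psat1* at chr19:15904678-15947337, *Shmt1* at chr11:60788104-60811718, *Shmt2* at chr10:127517123-127522444 and *Mthfd2* at chr6:83305691-83325908, all on the minus strand. Annotated genes overlap 8 of the 10 spans, such as the antisense RNA *Gm17232* at *Tdh* and *Ndufa4l2* at *Shmt2*, and whether reads were assigned by strand is not given in the sources used here, so part of a count could belong to an overlapping gene. The upstream sequence is shown for 3 genes whose levels differed most between SSCs and RPG3 and for which RefSeq gives a promoter window (GRCm38.p6). Each run holds the 250 bases before the transcription start, read 5′ to 3′ on the gene's strand, with CpG dinucleotides in capitals.
Gldc, chr19:30175442-30175691, - strand: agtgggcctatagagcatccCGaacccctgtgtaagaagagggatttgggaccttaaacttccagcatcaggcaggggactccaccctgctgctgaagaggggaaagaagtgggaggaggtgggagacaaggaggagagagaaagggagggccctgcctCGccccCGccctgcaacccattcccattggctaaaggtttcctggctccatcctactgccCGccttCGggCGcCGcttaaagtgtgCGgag
Bcat2, chr7:45569903-45570152, + strand: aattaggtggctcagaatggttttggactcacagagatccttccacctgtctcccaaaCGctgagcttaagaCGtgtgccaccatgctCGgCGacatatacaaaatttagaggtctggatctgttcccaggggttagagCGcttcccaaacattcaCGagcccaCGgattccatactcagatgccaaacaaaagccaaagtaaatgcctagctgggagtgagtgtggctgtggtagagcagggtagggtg
Sfxn1, chr13:54071595-54071844, + strand: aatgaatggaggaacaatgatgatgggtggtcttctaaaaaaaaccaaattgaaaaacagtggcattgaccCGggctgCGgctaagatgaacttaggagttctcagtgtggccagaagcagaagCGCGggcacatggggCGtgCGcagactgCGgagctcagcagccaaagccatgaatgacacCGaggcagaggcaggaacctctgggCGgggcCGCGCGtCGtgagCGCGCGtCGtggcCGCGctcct

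These 3 runs hold 8, 7 and 19 CpG. RefSeq windows of 300 bases, from 250 before to 50 after the start, were found for 8 of the 10 genes, as 10 windows, and not for *Tdh* and *Cth*. None of the 10 windows held TGATGNAA, the core of the composite site of Atf4 and C/EBP, or the E-box CACGTG on either strand. Of all 32851 windows, 3.97% held the former and 7.15% the latter.

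*Tdh*, the threonine dehydrogenase itself, was low in SSCs and high in RPG2 and RPG3. It ranged from 0 to 82.0 CPM over the 36 SSC1-4 sums, with a median of 23.1, and it was 42.7, 72.8, 20.4, 28.5, 16.7, 26.2 and 37.2 CPM in the 7 RPG1 libraries. It was 433, 464 and 514 CPM in RPG2 and 301 to 455 in RPG3, with a median of 378, and it was 21.4 and 36.9 CPM in RPG4. Every RPG2 and RPG3 library thus lay above every SSC1-4 library, whereas RPG4 lay within the SSC range in both libraries. The summed pluripotent markers were 945 and 1165 CPM in RPG4, above SSC1-4 (63.9 to 397) but also below RPG3 (1805 to 2271). The means were 22.3 ± 15.5 (SD, n = 36) in SSC1-4, 34.9 ± 18.99 (n = 7) in RPG1, 470 ± 40.6 (n = 3) in RPG2, 385 ± 53.4 (n = 8) in RPG3 and 29.2 ± 10.9 (n = 2) in RPG4. RPG2 and RPG3, the neighbours at the top of this order, overlapped, and so did RPG1, RPG4 and SSC1-4 at the bottom. The log2 fold change over SSC1-4 was 4.50 (SE 0.31) in RPG2, 4.27 (SE 0.24) in RPG3, 0.60 (SE 0.30) in RPG1 and 0.36 (SE 0.54) in RPG4. The RPG4 value had no stable sign, being -0.46 with 1 sum per batch and day and -0.07 without the day 20 replicate 2 library, and the RPG1 value was -0.40 in the 2 libraries that held both classes, with the library as a block.

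The contrast of RPG4 with RPG3 in *Tdh* was also seen inside single libraries. Both day 20 libraries that held the 2 classes had *Tdh* lower in RPG4, with differences in log2(CPM + 1) of -3.75 and -3.52. Only 21 cells in 2 sums stand behind the RPG4 level. Single cells of all libraries, those of small sums included, were then thinned to 100000 UMIs each. Cells with fewer UMIs were left out, 18 of 261 in RPG3, 3 of 47 in RPG2 and 48 of 333 in RPG1. In RPG4 it was 1 of 33, in SSC2 27 of 499 and in Neural 3 10 of 61. The median *Tdh* count per thinned cell was 41 in RPG3 (10th to 90th percentile, 11.2 to 66) and 56.5 in RPG2 (8.5 to 78.5). It was 2 in RPG1, 1 in RPG4 and 1 in SSC2. At least 1 *Tdh* UMI was found in 99.2% of thinned RPG3 cells and 71.9% of thinned RPG4 cells, against 9.80% in Neural 3, the cluster with the lowest level. The same shares without thinning were 100%, 87.9% and 16.4%, at median depths of 285700, 345200 and 234900 UMIs.

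*Gldc*, the glycine-decarboxylating subunit of the glycine cleavage system, was also higher in RPG2 and RPG3, but it stayed up in RPG4. It ranged from 1.23 to 20.5 CPM in SSC1-4, with a median of 7.96, and from 7.16 to 48.9 in RPG1. It was 124, 22.97 and 108 CPM in RPG2, 67.4 to 213 in RPG3, with a median of 87.7, and 28.99 and 77.7 in RPG4. All sums of RPG2, RPG3 and RPG4 lay above the highest SSC1-4 sum, although the day 14 replicate 5 library of RPG2 lay only just above it. The log2 fold change over SSC1-4 was 3.94 (SE 0.29) in RPG3, 3.46 in RPG2, 2.67 in RPG4 and 1.11 in RPG1. In the 2 libraries that held both RPG1 and SSC1-4 the RPG1 value was -0.70 with the library as a block.

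**Figure D1:**
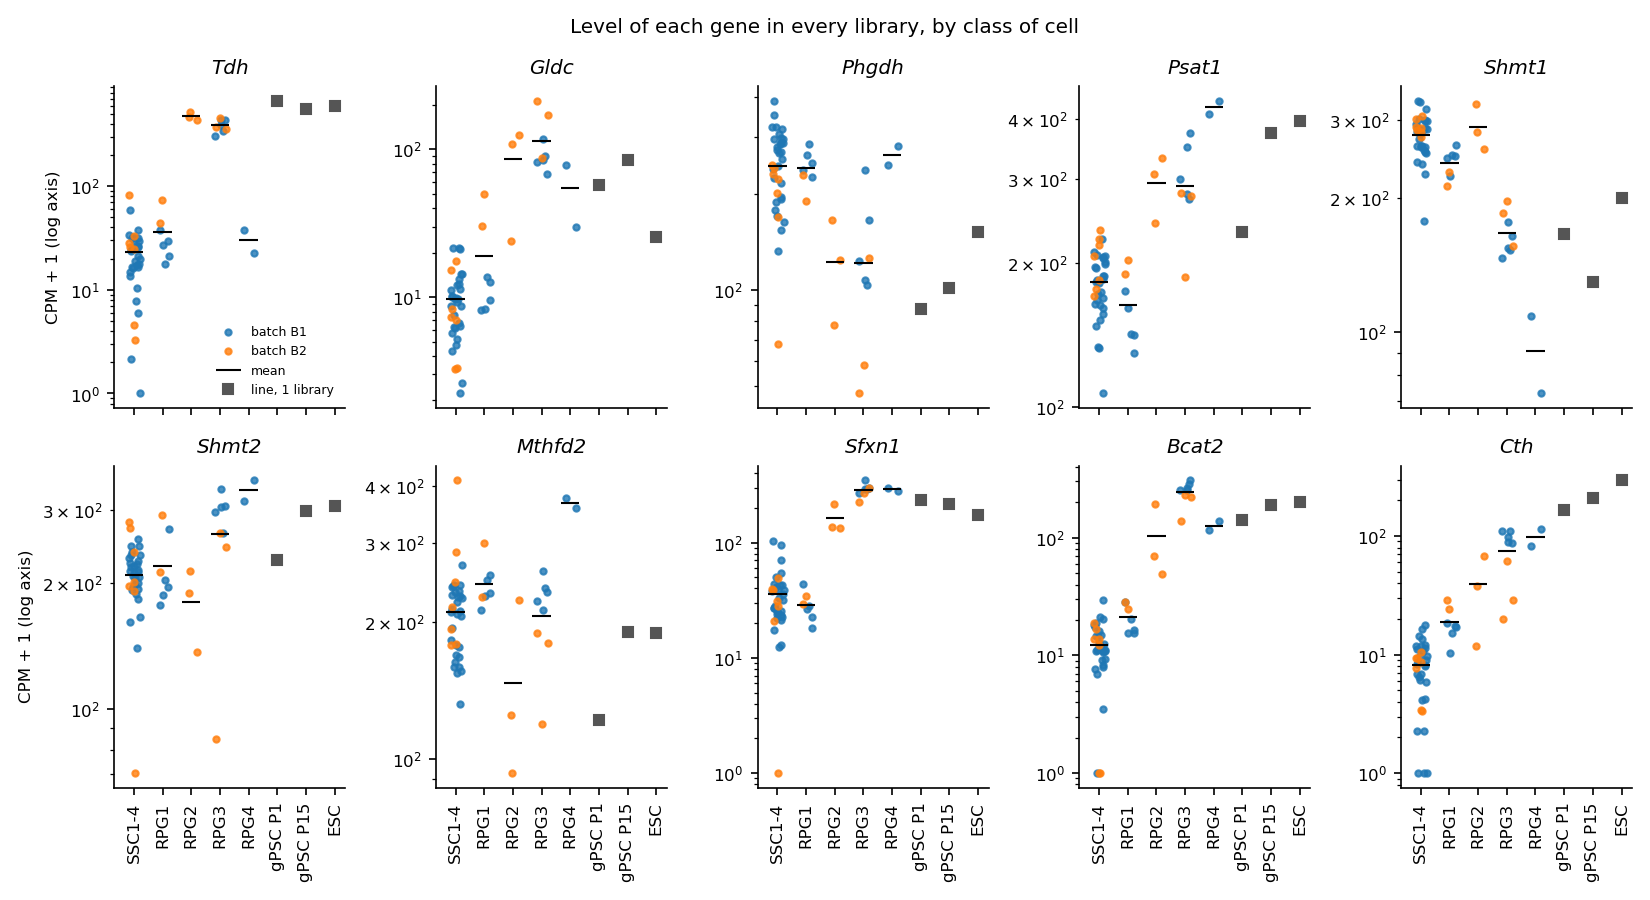
Level of each of the 10 genes as CPM + 1 on a log axis, 1 point per library (blue, batch B1; orange, batch B2), with the mean of each class as a line and the gPSC and ESC libraries as squares. *Tdh* is at 301 to 514 CPM in RPG2 and RPG3 and at 21.4 and 36.9 CPM in RPG4, while *Sfxn1*, *Cth* and *Bcat2* stay high in RPG4.

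The serine carrier and 2 enzymes that lie beside these steps were also higher in RPG2, RPG3 and RPG4 than in SSCs. *Sfxn1*, the mitochondrial serine carrier, was 0 to 102 CPM in SSC1-4 (median 30.3), 133, 136 and 215 CPM in RPG2, 224 to 346 in RPG3 (median 290.3) and 280 and 298 in RPG4. *Bcat2*, the mitochondrial aminotransferase of branched-chain amino acids, was 0 to 28.3 CPM in SSC1-4 (median 10.6), 48.4, 68.7 and 193 in RPG2, 136 to 306 in RPG3 (median 255) and 137 and 114 in RPG4. *Cth*, which cleaves cystathionine to cysteine, was 0 to 16.7 CPM in SSC1-4 (median 7.48), 66.5, 10.9 and 36.8 in RPG2, 19.1 to 109 in RPG3 (median 87.3) and 113 and 82.0 in RPG4. *Sfxn1* and *Bcat2* did not overlap with SSC1-4 in any of the 3 classes, and *Cth* overlapped in 1 RPG2 library. The log2 fold change in RPG3 was 4.60 (SE 0.24) for *Bcat2*, 3.56 (SE 0.30) for *Cth* and 3.27 (SE 0.20) for *Sfxn1*. In RPG1 *Sfxn1* was at 27.99 ± 8.24 CPM (n = 7) against 34.7 ± 20.4 in SSC1-4 (n = 36). *Bcat2* was at 20.3 ± 5.84 CPM in RPG1 against 11.3 ± 5.90, a log2 fold change of 0.79, with all 7 RPG1 sums above the SSC1-4 median. For *Cth*, 3 of 7 RPG1 libraries exceeded the highest SSC1-4 level, and the 2 highest, at 27.6 and 23.1 CPM, were those of batch B2. In the 2 libraries that held both classes the difference in log2(CPM + 1) of *Cth* was -0.22 and 0.37.

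The serine synthesis enzymes went different ways. *Phgdh*, which opens the pathway from 3-phosphoglycerate, was 67.0 to 390 CPM in SSC1-4 (median 244), 123, 165 and 76.9 in RPG2, 46.5 to 237 in RPG3 (median 115) and 280 and 246 in RPG4. *Psat1*, the aminotransferase of the next step, was 106 to 233 CPM in SSC1-4 (median 183), 331, 306 and 241 in RPG2, 186 to 373 in RPG3 (median 279) and 437 and 409 in RPG4. *Phgdh* was thus lower in RPG3 with overlap, 2 of 8 libraries lying below the lowest SSC1-4 level, and *Psat1* was higher in 7 of 8 RPG3 libraries than in any SSC1-4 library. Their log2 fold changes were -0.77 (SE 0.17) and 0.90 (SE 0.09) in RPG3, and 0.15 and 1.26 in RPG4.

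The hydroxymethyltransferases, which pass the one-carbon unit of serine to folate, also differed from each other. The cytosolic *Shmt1* was 177 to 330 CPM in SSC1-4 (median 283), 256, 325 and 281 in RPG2, 146 to 196 in RPG3 (median 159) and 71.9 and 108 in RPG4. The mitochondrial *Shmt2* was 69.3 to 279 CPM in SSC1-4 (median 211), 136, 189 and 213 in RPG2, 84.0 to 335 in RPG3 (median 279) and 352 and 314 in RPG4. *Shmt1* was below the lowest SSC1-4 level in 6 of 8 RPG3 and 2 of 2 RPG4 libraries, whereas *Shmt2* was above the highest in 4 of 8 and 2 of 2. The log2 fold changes were -0.51 (SE 0.14) and 0.56 (SE 0.12) in RPG3 and -1.59 and 0.71 in RPG4. *Mthfd2*, the mitochondrial dehydrogenase that oxidises the folate-bound unit, was 206 ± 43.9 CPM (n = 8) in RPG3 against 210 ± 49.6 (n = 36) in SSC1-4, 146 ± 68.1 in RPG2 and 367 ± 13.9 in RPG4. On the log2 scale it was 0.20 (SE 0.11) in RPG3 and 0.85 in RPG4, and the RPG3 value was -0.02 when sums were scaled by their totals alone.

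These are large differences in a setting where many genes differed. All sums of a class lay above all SSC1-4 sums for 3.19% of 21172 genes in RPG3, 4.24% in RPG2, 7.65% in RPG4 and 0.0189% in RPG1, and below them for 2.44%, 3.52%, 4.82% and 0.00472%. Among the 10 genes the count above was 5 in RPG3 (*Tdh*, *Gldc*, *Sfxn1*, *Bcat2* and *Cth*), 5 in RPG2 (*Psat1* in place of *Cth*), 6 in RPG4 and 0 in RPG1, and *Shmt1* in RPG4 was the only one with all sums below. No reading is drawn from these counts, since the genes were listed with these levels in view. The median log2 fold change of all tested genes was -0.25 in RPG3, -0.57 in RPG2, -0.54 in RPG4 and -0.04 in RPG1, and with library totals alone it was -0.47 in RPG3 and -0.72 in RPG2.

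Differences between RPG3 and RPG1 could be read within the 7 libraries that held both classes, where day and batch are shared. *Tdh*, *Gldc*, *Sfxn1*, *Bcat2* and *Cth* were higher in RPG3 in 7 of 7 libraries, and *Phgdh* and *Shmt1* in 0 of 7. The median difference in log2(CPM + 1) was 3.82 for *Tdh* (2.63 to 4.26), 3.83 for *Bcat2* (2.98 to 4.09), 3.35 for *Sfxn1* (2.77 to 4.01), 3.07 for *Gldc* (0.80 to 3.36) and 2.36 for *Cth* (0.01 to 3.23). *Phgdh* was -1.02 (-1.70 to -0.15) and *Shmt1* was -0.54 (-0.84 to -0.21). *Psat1* and *Shmt2* were higher in 6 of 7 libraries, with medians of 0.99 and 0.37, and *Mthfd2* in 2 of 7, with -0.06.

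**Figure D2:**
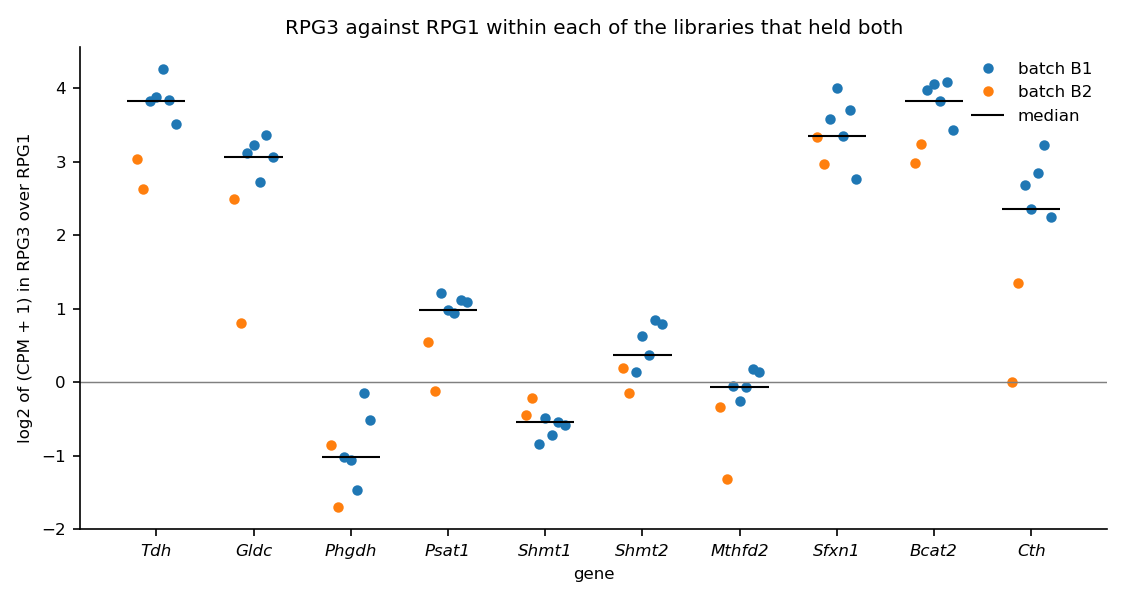
Log2 ratio of CPM + 1 in RPG3 over RPG1 for each gene, 1 point per library that held both classes (n = 7; blue, batch B1; orange, batch B2), with the median as a line. *Tdh*, *Gldc*, *Sfxn1*, *Bcat2* and *Cth* lie above 0 in all 7 libraries, and *Phgdh* and *Shmt1* below 0 in all 7.

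Between RPG3 and RPG4, in the 2 libraries that held both, *Tdh* had the widest gap, and *Gldc*, *Bcat2* and *Shmt1* were lower in RPG4 by medians of -1.02, -1.02 and -0.86 on the log2 scale. *Phgdh* (1.19), *Mthfd2* (0.75) and *Psat1* (0.55) were higher in RPG4 in both libraries. *Sfxn1* and *Cth* differed by 0.05 and -0.03.

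Across the 18 clusters of the original condition, high *Tdh* was limited to RPG2 and RPG3, followed by RPG1 (34.9 CPM), RPG4 (29.2) and Meiotic 1 (28.4), with Fibroblast 2 (7.59) and Neural 3 (1.10) at the low end. *Gldc* was likewise highest in RPG3 (113) and RPG2 (85.1) and lowest in Neural 3 (2.17) and Fibroblast 2 (2.196). The other genes were not limited to the RPG clusters. Neural 3 held 416 CPM of *Shmt2*, the highest of all clusters, 383 of *Psat1*, 223 of *Sfxn1* and 48.98 of *Cth*, and Fibroblast 2 held 137 of *Sfxn1* and 47.0 of *Bcat2*. The 5 fibroblast markers, which feeder cells share, summed to 920.5 and 932 CPM in the 2 Neural 3 libraries and to 1753 to 3562 in Fibroblast 2. The 4 neural markers summed to 278 and 282 CPM in Neural 3. The part of feeder cells in these levels was not tested. *Phgdh* was highest in SSC3 (318) and *Shmt1* in Meiotic 1 (316) and SSC2 (311). No library held 5 cells of Neural 4, and its level comes from all its cells pooled.

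**Figure D3:**
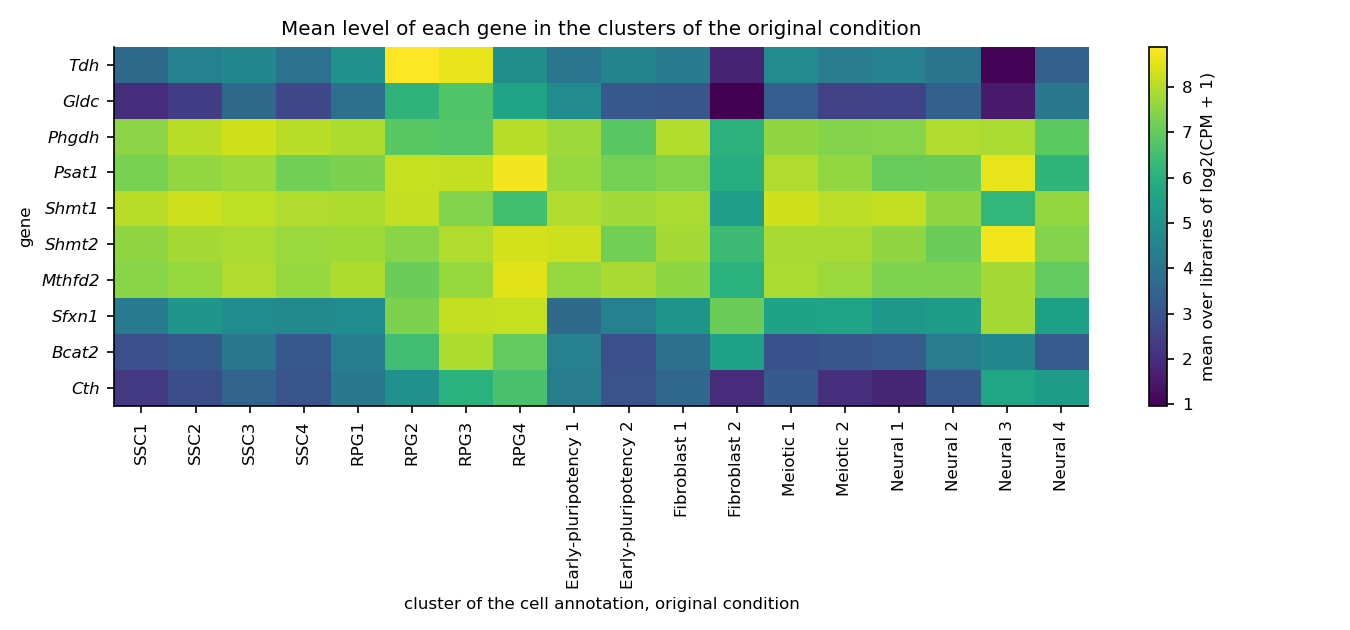
Level of each gene, as the mean of log2(CPM + 1) over libraries, in the 18 clusters of the original condition (columns) with the genes in rows; brighter colours are higher. *Tdh* and *Gldc* have their highest levels in RPG2 and RPG3, and *Psat1*, *Shmt2*, *Sfxn1* and *Cth* are higher in Neural 3 than in SSC1 to SSC4.

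As a description over these 18 clusters, which share libraries, these mean log2 levels of *Gldc* and *Tdh* had a Pearson r of 0.825, *Psat1* and *Shmt2* of 0.809, *Bcat2* and *Sfxn1* of 0.795, and *Mthfd2* had 0.768 with *Shmt2* and 0.754 with *Psat1*. The lowest value was -0.646, between *Sfxn1* and *Shmt1*. Among 11763 genes with a mean of at least 5 CPM, those most like *Tdh* were *Gm13154* (r = 0.957), *Dppa5a* (0.957), *Gdf3* (0.953), *Fbxo22* (0.952) and *Apoc1* (0.947). *Dppa5a*, a gene known from pluripotent cells, was at 1266 CPM in RPG3 and 74.1 in SSC2, and *Gdf3*, a TGF-beta family ligand, at 174.5 and 6.10.

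In the established lines *Tdh* was higher than in any RPG3 library of the original condition. It was at 668 CPM in gPSC-1 at passage 1 (95% exact Poisson interval 655 to 682), 551 at passage 15 (537 to 565) and 598 in ESCs (585.5 to 610.5), against a highest RPG3 level of 455. *Cth* was also higher than in any RPG3 library of the original condition, with 167, 210 and 295 CPM against at most 109. RPG3 samples with 5C overlapped with the lines in both genes, at 336 to 757 CPM of *Tdh* and 30.9 to 218 of *Cth*. With DMSO *Tdh* was 504 and 530 CPM, below the lines. The lines and the RPG3 cells also differed in culture medium. *Gldc* was at 56.6 and 84.2 CPM in gPSC-1 at passages 1 and 15 and at 24.5 in ESCs (21.99 to 27.1). Passage 1 and the ESCs lay below the lowest RPG3 library, at 67.4 CPM, and the ESC level was near the highest SSC1-4 level of 20.5. *Sfxn1* (234, 214 and 172) and *Bcat2* (139, 190 and 198) lay at or below the RPG3 means. *Psat1* was at 231, 374 and 396 CPM and *Phgdh* at 86.4, 100.1 and 151. The intervals cover counting error only, there was 1 library each, and no test was made.

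Other genes of the pathway give the context, and these could be called. Of 50 further genes in 11 lists, 48 could be tested between classes with edgeR's quasi-likelihood test. A gene was called where its Benjamini-Hochberg adjusted p was under 0.05 and its natural-log fold change at least 0.5 in size. In RPG3 23 were called higher and 2 lower, where 19.4% and 26.2% of all 21172 genes were (45.5% in either direction). In RPG2 20 were higher and 2 lower (14.1% and 16.1% of all genes, 30.2% in all), in RPG4 24 and 2 (11.9% and 12.4%, 24.4% in all) and in RPG1 4 and 0 (2.89% and 1.4%, 4.29% in all). These totals rest on few libraries in places: the 5158 calls of RPG4 were 2980 and 3159 without 1 of its 2 libraries, and the 908 of RPG1 were 4 with the library as a block, and 0 without it, in the 2 libraries that held both classes. For RPG2 and RPG3 the block, in 2 shared libraries each, gave 3102 calls in place of 6389 and 3469 in place of 9640. Their median log2 fold change was 0.78 in RPG3, 0.51 in RPG2, 0.82 in RPG4 and 0.12 in RPG1. These lists were drawn up with earlier results of these data known, and the classes were themselves defined on the transcriptome. The class calls and adjusted p of these genes, here and below, are thus a description and no independent test.

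*Amt*, the aminomethyltransferase partner of *Gldc* in glycine cleavage, was 28.4-fold higher in RPG3, at 66.8 ± 21.4 CPM (n = 8) against 2.53 ± 2.62 (n = 36), with an edgeR adjusted p of 4.12e-20, while *Gcsh* (1.31-fold) and *Dld* (1.06-fold), the other 2 tested subunits, were not called. *Gcat*, which turns the product of *Tdh* into glycine, was at 220 ± 67.1 CPM in RPG3 and 213 ± 28.7 in SSC1-4 and was not called (edgeR adjusted p = 0.0567). *Psph*, the last step of serine synthesis, was at 191 ± 35.6 against 166 ± 37.3 CPM, a 1.34-fold difference below the fold required (edgeR adjusted p = 0.00354).

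By list, the counts stand against 19.4% of all genes called higher in RPG3, and with 1 to 7 genes a list they are a description. In the mitochondrial folate cycle 1 of 5 tested genes rose in RPG3, *Mthfd1l*, the synthetase that releases formate, 16.2-fold to 62.4 ± 17.1 CPM. In the cytosolic cycle 4 of 7 rose, among them *Mthfd1* 4.50-fold to 194 ± 33.8 CPM and *Tyms* 2.05-fold. *Cbs*, the enzyme before *Cth* in transsulfuration, rose 85.5-fold, from 0.621 ± 1.001 to 47.0 ± 8.38 CPM, and was the only 1 of 4 in its list. *Mtr*, methionine synthase, fell to 0.255 of the SSC1-4 level, with 18.9 ± 3.42 against 87.8 ± 18.5 CPM, while *Ahcy* and *Mtrr* of the same list rose 2.28-fold and 2.13-fold. *Bcat1*, the cytosolic counterpart of *Bcat2*, rose 64.8-fold to 199 ± 61.7 CPM in RPG3, and 4 of 5 branched-chain genes rose, including *Dbt* 7.75-fold. *Bcat1* and *Cbs* were also called in RPG1, at 4.60-fold and 5.29-fold, but in the 2 libraries that held both RPG1 and SSCs *Bcat1* was -0.21 on the log2 scale.

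Amino acid carriers and genes of the Atf4 response, which amino acid shortage is known to induce, moved in part. Of 7 tested carriers 4 rose in RPG3, with *Slc1a4* 9.45-fold and *Slc1a5* 5.10-fold. Of 7 genes of the Atf4 list 5 rose in RPG3 and 6 in RPG4, with none lower, and in RPG2 4 rose and 1 fell (*Atf3*). Of all genes 19.4% were called higher in RPG3, 11.9% in RPG4 and 14.1% in RPG2, where 16.1% were lower. Within RPG3 the median log2 difference of the 7 Atf4 genes was -0.85 in B2 against B1, with 0 called. For all tested genes it was -0.04. RPG2 sums were all B2 and RPG4 sums all B1, and the part of batch in the Atf4 counts was not tested. *Atf4* itself was at 138 ± 32.6 CPM in SSC1-4, 347 ± 39.8 in RPG3 and 452 ± 26.5 in RPG4. *Asns*, asparagine synthetase, was at 111 ± 32.99, 297 ± 95.5 and 436 ± 4.16 CPM. The 2 Atf4 genes not called in RPG3 were *Ddit3*, at 19.6 CPM against 20.1 in SSC1-4, and *Atf3*, at 2.31 against 2.81. *Chac1*, which degrades glutathione, was at 4.45 ± 10.2, 43.2 ± 28.8 and 106 ± 20.7 CPM. In the list of serine breakdown, *Sdsl* was at 0.0264 CPM in SSC1-4, with 31 of 36 sums at 0, and at 2.42 in RPG3, and *Srr*, which racemises serine, fell to 0.347 of the SSC1-4 level.

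Within RPG3 the batches could be compared, 3 libraries of B2 from days 12 and 18 against 5 of B1 from days 20 and 23, so batch and day cannot be told apart. With edgeR 0 of the 10 genes were called, and 2 of 13344 genes (0.015%) were, 1 higher (0.00749%) and 1 lower (0.00749%). An unadjusted p below 0.05 was reached by 1640 genes, and DESeq2 made 206 calls. *Cth* had the widest gap. It was 19.1, 27.7 and 60.4 CPM in B2 and 109, 88.2, 109, 96.3 and 86.4 in B1, with a log2 difference of -1.34 (SE 0.34, edgeR adjusted p = 0.203). It passed with DESeq2 (adjusted p = 0.00932), with no expression filter (0.0345) and without the day 18 replicate 5 library (0.0197). *Gldc* ran the other way, with 213, 169 and 86.1 CPM in B2 and 67.4 to 117 in B1 (log2 difference 0.86, edgeR adjusted p = 0.225), and *Phgdh* was -0.88 (edgeR adjusted p = 0.307). *Tdh* was 369, 358 and 455 CPM in B2 and 301 to 436 in B1, which overlap. All B2 sums of *Cth*, *Shmt2*, *Mthfd2* and *Bcat2* lay below all B1 sums, as they did for 5.56% of the genes tested (all sums above for 2.65%). The other 6 genes, *Tdh* and *Gldc* among them, overlapped.

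Over the days of culture the 10 genes showed no called trend in SSC1-4. With day as a number and batch as a covariate over 36 sums, 0 of 10 were called, against 3.46% of 17882 genes (0.878% higher and 2.58% lower). *Gldc* had 0.55 (SE 0.28) on the log2 scale per 10 days (edgeR adjusted p = 0.344), *Sfxn1* 0.54 (SE 0.23, 0.209) and *Tdh* 0.15 (SE 0.28). Of the 47 other pathway genes tested, *Slc38a1*, a carrier of neutral amino acids, rose by 0.55 per 10 days (edgeR adjusted p = 0.0103). The day 0 level of *Bcat2*, in 1 library, was 9.99 CPM, within the range of the later days.

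The treatment samples allowed 5C, which the study applied to help reprogramming, to be compared with its vehicle within a class, using the class that the authors predicted for each cell. In RPG3 6 samples with 5C, from days 12 to 16, stood against 2 with DMSO, both from day 20, so treatment and day cannot be told apart. These counts are among those from which the genes were listed, so levels and fold changes of the 10 genes are given with no test. The fit across 11429 genes called 7.27% lower and 6.19% higher (13.5% in all), and its 1539 calls were 525 and 439 without DMSO replicate 1 and 2. The summed spermatogonial markers were 131 to 432 CPM in 5C RPG3 samples and 54.8 and 69.0 with DMSO, and the part of this in the differences was not tested.

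*Phgdh* was 60.02, 70.9, 161, 54.2, 51.9 and 51.9 CPM with 5C and 233 and 251 with DMSO, with no overlap and a log2 fold change of -2.09 (SE 0.35). *Psat1* was 89.4 to 316 CPM with 5C (median 126) and 341 and 347 with DMSO, also with no overlap (-1.52, SE 0.34). Both enzymes of serine synthesis in the list were thus lower in every 5C sample. *Psph*, the remaining enzyme of the pathway and no member of the list, was 45.6 to 174 CPM with 5C (median 75.4) and 159 and 161 with DMSO, a log2 fold change of -1.28 (edgeR adjusted p = 0.0186), and it was not called without DMSO replicate 1 or 2 (0.14 and 0.159), where the 1 DMSO sample left is assumed to vary like the 5C samples, here and below.

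*Sfxn1* was 127 to 159 CPM with 5C (median 142) and 198 and 220 with DMSO, again with no overlap (log2 fold change -0.99, SE 0.17). *Mthfd2* was 42.9 to 54.2 CPM in 5 samples with 5C and 157 in replicate 5, against 117.5 and 136.5 with DMSO (-1.30, SE 0.40). All 5C sums lay below both DMSO sums for 7.76% of genes, *Phgdh*, *Psat1* and *Sfxn1* among them, and above them for 24.2%, with *Shmt1* among these. *Tdh* itself overlapped, at 336 to 757 CPM with 5C (median 603) and 504 and 530 with DMSO (-0.30, SE 0.23). *Gldc* (28.8 to 290 against 144 and 140 CPM) and *Cth* (30.9 to 218 against 59.0 and 62.1) overlapped widely, and *Bcat2* (-0.66) overlapped too. *Shmt2* (-0.79) was 126 to 174 CPM in 5 samples with 5C, below both DMSO sums of 184.5 and 248, and 292 in replicate 5. *Gcat*, the partner of *Tdh* and no member of the list, fell by 1.17 on the log2 scale (edgeR adjusted p = 0.000426), with 110 to 154 CPM against 216 and 233.

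The scaling matters for these values. TMM factors were 1.04 to 1.14 in 5C RPG3 samples and 0.792 and 0.804 in the DMSO samples, and without TMM the median of all genes moved from 0.08 to 0.51 and the calls from 708 higher and 831 lower to 1678 and 223. With totals alone *Phgdh* was -1.67, *Psat1* -1.09, *Mthfd2* -0.88 and *Sfxn1* -0.56, while *Tdh* turned to 0.13. *Psph* was -0.85 and no longer called. *Shmt1* was 175 to 224 CPM with 5C and 104 and 127 with DMSO, a log2 fold change of 0.36 with TMM and 0.79 without. Replicate 5 stood apart for *Phgdh*, *Mthfd2*, *Shmt2* and *Cth*, and it held 54 of the 145 RPG3 cells with 5C. Without it *Phgdh* was -2.52, *Psat1* -1.85, *Mthfd2* -1.80, *Shmt2* -1.05 and *Sfxn1* -0.97.

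**Figure D4:**
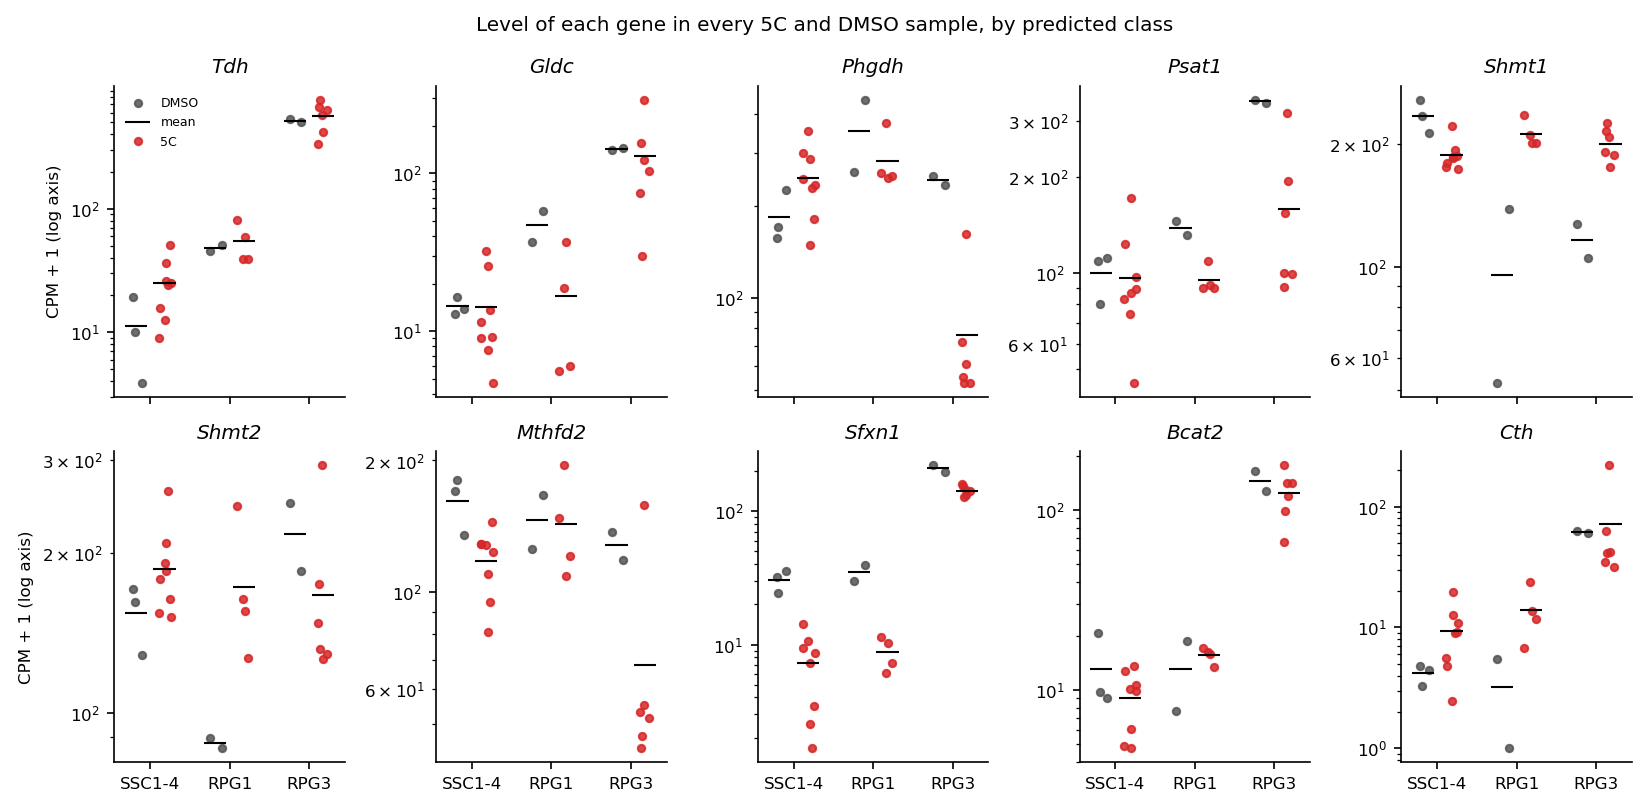
Level of each gene as CPM + 1 on a log axis in every 5C sample (red) and DMSO sample (grey) for SSC1-4, RPG1 and RPG3, with the mean of each group as a line. *Phgdh*, *Psat1* and *Sfxn1* in RPG3 and *Sfxn1* in all 3 classes are lower in every 5C sample than in every DMSO sample.

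In SSC1-4, 8 samples with 5C stood against 3 with DMSO, and the fit called 16.5% of 12293 genes (8.74% higher and 7.75% lower). The 10 genes are again described only. *Sfxn1* was 0.661 to 13.3 CPM with 5C (median 6.92) and 23.3, 31.02 and 34.5 with DMSO, a log2 fold change of -2.23 (SE 0.53). The summed markers also separated here, at 5.60 to 18.5 CPM with 5C and 22.7 to 54.2 with DMSO for the 5 fibroblast genes and at 28.5 to 90.01 and 99.96 to 108 for the 4 meiotic genes, and their part in the *Sfxn1* difference was not tested. *Sfxn1* alone of the 10 showed no overlap, which 8.82% of genes did below and 8.58% above the DMSO sums. *Mthfd2* had a log2 fold change of -0.49 (SE 0.17). *Tdh* was 8.03 to 49.5 CPM with 5C (median 23.6) and 2.88, 18.4 and 9.06 with DMSO (1.23, SE 0.54). *Phgdh* was 149 to 352 CPM with 5C and 156 to 225 with DMSO, with overlap (0.39, SE 0.20), and the difference between this and RPG3 was not tested.

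In RPG1, with 4 samples against 2, the fit called 4.88% of 9351 genes (2.15% higher and 2.73% lower). Both DMSO samples were from day 20, so treatment and day cannot be told apart here either. *Sfxn1* was 5.10 to 10.4 CPM with 5C and 28.8 and 38.8 with DMSO (log2 fold change -2.31, SE 0.87). *Shmt1* was 199.6 to 235 CPM with 5C and 138 and 51.0 with DMSO (1.003, SE 0.35), and 1.85 without DMSO replicate 1. All 5C sums lay above both DMSO sums for *Shmt1*, *Shmt2* and *Cth*, as for 24.9% of genes, and below them for *Sfxn1* and *Psat1*, as for 9.74%. The DMSO sums held 6 and 10 cells.

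The other pathway genes were called on both sides, at shares near those of all genes. In RPG3 with 5C 4 of 42 fell (*Psph*, *Gcat*, *Tyms* and *Bckdhb*) and 1 rose, *Mtr*, from 6.78 and 7.47 CPM to a median of 25.8 (log2 fold change 1.55, edgeR adjusted p = 0.0471), which was not called without 5C replicate 5 (0.0814) or without DMSO replicate 1 or 2 (0.241 and 0.345). *Tyms* and *Bckdhb* were not called without DMSO replicate 1 (0.102 and 0.252) or 2 (0.112 and 0.268), nor with totals alone (0.116 and 0.294). Of all genes 7.27% were lower and 6.19% higher there. In SSC1-4, where 8.74% of all genes were higher and 7.75% lower, 4 of 41 rose, *Mthfd1*, *Slc38a1*, *Ahcy* and *Gclc*, and 5 fell, of which *Mtr* fell by 1.21 on the log2 scale (edgeR adjusted p = 0.000175) and *Mat2b*, a subunit of methionine adenosyltransferase, fell by 1.29 (2.12e-06). *Mtr* thus stood higher with 5C in RPG3 and lower in SSC1-4, and this difference between the classes was not tested. In RPG1, where 2.15% of all genes were higher, 1 of 34 rose, *Mthfd1*, by 2.04 (edgeR adjusted p = 0.0497).

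RPG2 and RPG4 held too few sums with treatment for a test. *Tdh* in RPG2 was 489, 902 and 893 CPM with 5C and 436 in the 1 DMSO sample. In RPG4 it was 71.6 CPM in the 1 sample with 5C and 49.5 and 68.0 in the 2 with DMSO. The low *Tdh* of RPG4 was thus also found in these cells, but their classes were predicted from the original data, so this is no independent check. The summed spermatogonial markers were 734 CPM in the 5C RPG4 sum of 5 cells, against 17.8 and 21.6 in the DMSO RPG4 sums. In RPG4 of the original condition they were 81.6 and 123 CPM. In RPG2 they were 224 to 1003 CPM with 5C and 99.0 with DMSO. The part of these markers in the *Tdh* levels was not tested. *Gldc* in RPG4 was 62.4 CPM with 5C and 156.5 and 99.5 with DMSO, and *Phgdh* was 156, 281 and 225.5 in the same order.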

How the data were processed

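The values deposited by the authors were UMI counts per gene and cell, not normalized, from modified STRT-seq and scTrio-seq2, each as a raw table and a clean table that had passed their filters. The clean table was used for STRT-seq. For 5C and DMSO the cells of the clean tables were taken with the genes of the raw tables, so that both arms held the same genes, and the values were checked to be equal wherever a gene was in both. Per the study's methods, UMIs were extracted and counted with UMItools, reads were aligned to mm10 with STAR 2.7.2b and assigned with featureCounts 2.0.0, and cells with few genes or much mitochondrial RNA were removed. Clusters and predicted classes are the authors'. The members and lists were chosen with earlier results of these data known.

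For each library, counts of the cells of a class were added up where 5 or more cells were present, and a library was the replicate. Nothing says that libraries came from separate cultures, so p-values measure the spread between these libraries, which may be technical. Tests used edgeR 4.0.16 (quasi-likelihood, TMM factors, filterByExpr) in R 4.3.3 over all genes with Benjamini-Hochberg adjustment, DESeq2 1.42.0 was the alternative, and the scripts were tested on simulated counts. A call needed an adjusted p below 0.05 and a fold change of at least 0.5 on the natural-log scale, and day needed the adjusted p alone. Class contrasts had no test for the 10 genes. The 5C contrasts were fitted as planned, but no p-value is given for the 10 genes there, since the rule names those counts as a source. Besides the members, called genes of the lists were named, at most 4 a list by the size of the log2 fold change, and the 5 genes most like *Tdh* over the clusters. In RPG3 against SSC1-4 *Gcat*, *Psph*, *Gcsh*, *Dld*, *Ddit3* and *Atf3*, which were not called, were named after their values were seen. Libraries that held both classes served as blocks, with correlations of their deviations of 0.165 for RPG1, 0.275 for RPG2 and 0.0554 for RPG3, each over the 2 shared libraries together. Intervals cover counting error only. Alternatives and their effect stand in the closing section. 48 treated cells with no predicted class were left out.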

Additional observations from a re-analysis of the deposited data

Results flagged for a closer look

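Of 50 groups of 4 to 10 sums, 8 held a level that stood apart from the others of its group by Dixon's criterion at the 95% level, which chance alone meets in about 1 in 20 groups, or 2.5 here. *Shmt2*, the mitochondrial hydroxymethyltransferase, was at 84.0 CPM in the day 12 replicate 2 sum of RPG3, against 243 to 335 in the other 7, and this sum held 7 cells. With 5C, replicate 5 stood apart in RPG3 for *Phgdh* (161 CPM against 51.9 to 70.9), *Shmt2* (292 against 126 to 174), *Mthfd2* (157 against 42.9 to 54.2) and *Cth* (218 against 30.9 to 62.4). The same sample stood apart in RPG1 for *Phgdh* (374 CPM against 248 to 256) and *Psat1* (108 against 88.8 to 90.6). *Shmt1* was at 220.1 CPM in SSC1-4 of 5C replicate 3, against 172 to 192 in the other 7 samples.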

How the results depend on the processing

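The counts of called genes moved most where few libraries were left. For RPG1 908 genes were called, 450 with 1 sum per batch and day, 4 with the library as a replicate block in the 2 libraries that held both classes, 0 in these libraries without the block, and 643 to 866 with 1 RPG1 library left out. RPG2 gave 6389, 3102 with the block, 2319 without it in the same libraries and 5124 to 5406 with 1 left out, and RPG3 gave 9640, 3469, 2981 and 9105 to 9439. For RPG4, with 5158 calls, 2980 to 3159 stood without 1 library. No paired analysis was possible because RPG4 shared no library with SSC1-4 and because the sample titles pair no 5C sample with a DMSO sample. Replicate numbers only count the samples of each arm, and samples with the same number came from different days. The arms shared 1 such number in RPG3 and 1 in RPG1. In SSC1-4 they shared the numbers 3, 4 and 5, whose deviations had r of 0.0373, 0.0265 and -0.0326. A block on these numbers, which is no true pairing, gave 1818 calls against 1841 in the same samples without it and 2028 in all. Without 1 DMSO sample or 5C replicate 5 the calls were 1322 to 2088, the lowest without DMSO replicate 5. The batch contrast in RPG3 gave 2 calls, 92 with no filter, 206 with DESeq2, 7 with at least 10 cells per sum and 0 to 18 with 1 library left out. The day trend gave 618 calls, 385 with DESeq2 size factors, 1173 with no filter, 1083 with DESeq2 and 1123 with at least 10 cells, and 25.4% of calls were higher, 38.7% with DESeq2 size factors and 57.5% with totals alone. For 5C, RPG3 gave 1539 calls, 439 without DMSO replicate 2, 525 without DMSO replicate 1 and 1522 without 5C replicate 5, the other 5C samples not being left out in turn, and RPG1 gave 456, 700 with at least 10 cells and 228 to 628 with 1 left out. With totals alone the share of higher calls went from 46% to 88.3% in RPG3 and from 44.1% to 74.4% in RPG1.

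Values near 0 also crossed it by less than the spread between libraries, such as *Shmt2* in RPG1 (-0.17 to 0.13 over the alternatives) and RPG2 (-0.24 to 0.25) and *Phgdh* in RPG1 (-0.18 to 0.03). Other values that changed sign included these, on the log2 scale. In RPG1, *Gldc* was -0.70 with the block and -0.68 in the same libraries without it, *Bcat1* -0.21 in both, *Cth* -0.0101 without the block, and *Sfxn1* 0.65 with 1 sum per batch and day. The value of Sdsl: RPG2 against SSC1-4 ranged from -2.09 (without the day 14 replicate 6 library) to 6.18 with 1 library left out, and *Phgdh* in RPG4 was -0.0559 with at least 10 cells. *Tdh* between batches was -0.047 to 0.19 with 1 library left out, the lowest without the day 18 replicate 5 library. For day, *Shmt2* was 0.0132 with DESeq2 size factors, 0.0152 with DESeq2, 0.000949 with at least 10 cells and 0.083 with totals alone, and *Cth* was 0.0439 with totals alone. For 5C in RPG3, *Tdh* was 0.13 and *Cth* 0.28 with totals alone, and *Cth* was 0.0763 with at least 10 cells. For 5C in RPG1, *Tdh* was 0.0341 with no filter, 0.19 with totals alone and -0.27 to 0.13 with 1 sample left out, and *Bcat2* was -0.44 to 0.93, the lowest without DMSO replicate 2. For 5C in SSC1-4, *Psat1* was 0.0519 in the same samples without the block, and *Gldc* was 0.46 with the block, 0.63 without it in the same samples and -0.23 to 0.0543 without 1 DMSO sample or 5C replicate 5, the highest without DMSO replicate 5. The causes were not tested. Of the 36 SSC1-4 sums, 3 were at 0 for *Cth*, 3 for *Bcat2*, 1 for *Tdh* and 1 for *Sfxn1*.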
